A study of Mus musculus with 12 samples.

Results

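The apolipoproteins are the protein components of plasma lipoproteins, and 10 of their genes expressed in liver are described here: Apoa1, Apoa2, Apoa4, Apoa5, Apob, Apoc1, Apoc3, Apoe, Apom and Apon. Every probe of the array whose transcript accession belongs to 1 of these genes was taken, which gave 12 probes for 10 of the 20886 genes named on the array, with 2 probes each for Apoa2 and Apob. The data are liver RNA of 12 female C57BL/6N mice, 3 in each of 4 diet groups, on 12 one-colour arrays. Ctrl mice ate a normal formula diet with corn starch and sucrose as carbohydrate, and RS mice ate that diet with resveratrol added. DJ mice ate the diet with Dongjin rice in place of the starch and sucrose, and DJ526 mice with the rice DJ526, a line of Dongjin that makes resveratrol through a transferred peanut stilbene synthase gene. All mice were 6 weeks old when bought and were killed after 6 months on the diets. DJ526 against DJ therefore sets a resveratrol-making transgenic rice against its parent, and the transgene and resveratrol cannot be told apart. The mice were caged 10 together by group, so that cage and diet cannot be told apart either.

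Apolipoproteins wrap the fat and cholesterol that liver and intestine send into the blood, and they steer the particles to enzymes and receptors. ApoB is the scaffold of very low density lipoprotein (VLDL) and chylomicrons, while apoA-I and apoA-II are the main proteins of high density lipoprotein (HDL). ApoC-III restrains and apoA-V promotes the breakdown of triglyceride by lipoprotein lipase, apoE is the ligand by which remnants are taken up, and apoM carries sphingosine 1-phosphate. In the mouse genome Apoa1, Apoc3, Apoa4 and Apoa5 are neighbours, and so are Apoe and Apoc1.

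The largest differences between DJ526 and DJ livers were those of Apoa4, Apoa2 and Apon, and the promoters of these 3 genes are shown for that reason. Of the 10 genes, 8 had a promoter in the RefSeq table (GRCm38.p6). The 250 bases before each start are given from 5′ to 3′ in lower case, and capitals mark matches, on either strand, to an HNF4-type site (CAAAGTNCA), a nuclear receptor half-site (AGGTCA), an E-box (CACGTG) or a TATA box (TATAAA). These motifs were chosen after the promoters had been looked at, and no matches in the 4 sequences overlapped. HNF4-type sites are read by the liver factor Hnf4a, and half-sites by many nuclear receptors.
Apoa4 promoter, chr9:46240594-46240843, plus strand: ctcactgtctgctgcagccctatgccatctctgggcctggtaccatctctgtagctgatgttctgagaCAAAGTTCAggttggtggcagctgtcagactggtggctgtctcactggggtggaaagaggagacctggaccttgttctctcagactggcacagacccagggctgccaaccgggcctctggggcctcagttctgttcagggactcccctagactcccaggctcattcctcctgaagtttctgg
Apoa2 promoter, first start, chr1:171224804-171225053, plus strand: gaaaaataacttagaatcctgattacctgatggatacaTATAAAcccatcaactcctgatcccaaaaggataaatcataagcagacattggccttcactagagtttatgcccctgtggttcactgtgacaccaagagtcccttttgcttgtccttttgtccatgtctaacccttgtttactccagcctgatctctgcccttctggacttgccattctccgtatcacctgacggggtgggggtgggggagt
Apoa2 promoter, second start, chr1:171221314-171221563, plus strand: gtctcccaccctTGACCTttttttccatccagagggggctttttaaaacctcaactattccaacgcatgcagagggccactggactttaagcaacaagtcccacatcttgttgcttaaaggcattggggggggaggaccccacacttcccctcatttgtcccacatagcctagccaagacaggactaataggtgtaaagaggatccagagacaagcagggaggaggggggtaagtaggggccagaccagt
Apon promoter, chr10:128253881-128254130, plus strand: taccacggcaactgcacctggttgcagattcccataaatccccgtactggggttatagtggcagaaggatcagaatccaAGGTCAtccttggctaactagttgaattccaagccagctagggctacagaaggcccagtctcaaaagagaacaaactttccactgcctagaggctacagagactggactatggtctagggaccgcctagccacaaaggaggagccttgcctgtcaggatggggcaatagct

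The Apoa4 promoter held the HNF4-type site, which began 182 bases before the start, and 1.19% of the 32851 promoters in the table held that motif in these 250 bases. The half-site began 238 bases before the second Apoa2 start and 171 bases before the Apon start, and 14.0% of promoters held one. A TATA box lay 212 bases before the first Apoa2 start, against 12.4% of promoters with one, and the E-box, held by 6.02%, matched none of the 4. A match of letters is a description and not a bound site.

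The level used throughout is log2 of a probe's processed signal minus log2 of the 75th percentile of its array, so that 1 unit is a 2-fold difference. Levels of different probes are not compared. All 12 probes were well above background on all 12 arrays and none was saturated. Of all spots on an array, 73.0% to 80.8% were well above background, and the number of arrays limits the precision. The arrays lay on 3 slides that did not follow the groups evenly: slide 1 held Ctrl 1 to 3 and DJ 1, slide 2 held RS 1, RS 2, DJ 2 and DJ 3, and slide 3 held RS 3 and DJ526 1 to 3. No slide held DJ526 together with DJ or Ctrl, so a slide-adjusted value for those comparisons rests on the single RS 3 array that shared their slide. Ctrl shared a slide only with DJ 1, so slide-adjusted values for comparisons with Ctrl rest on that array. All 6 hepatocyte markers were well above background on every array, with a summed level of 10.79 to 10.97 in Ctrl, 10.91 to 11.00 in RS, 11.00 to 11.09 in DJ and 10.79 to 10.87 in DJ526. DJ526 thus lay below RS and DJ without overlap in this sum, as it did for the brightest Apoa2 probe. The part of this sum in the results was not tested. The intestinal markers matter because intestine also makes apoA-IV and apoB: 2 of 4 (Fabp2 and Vil1) were well above background on every array, Fabp6 was so on 11 arrays, and the intestinal regulator Cdx2 on none.

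**Figure D1:**
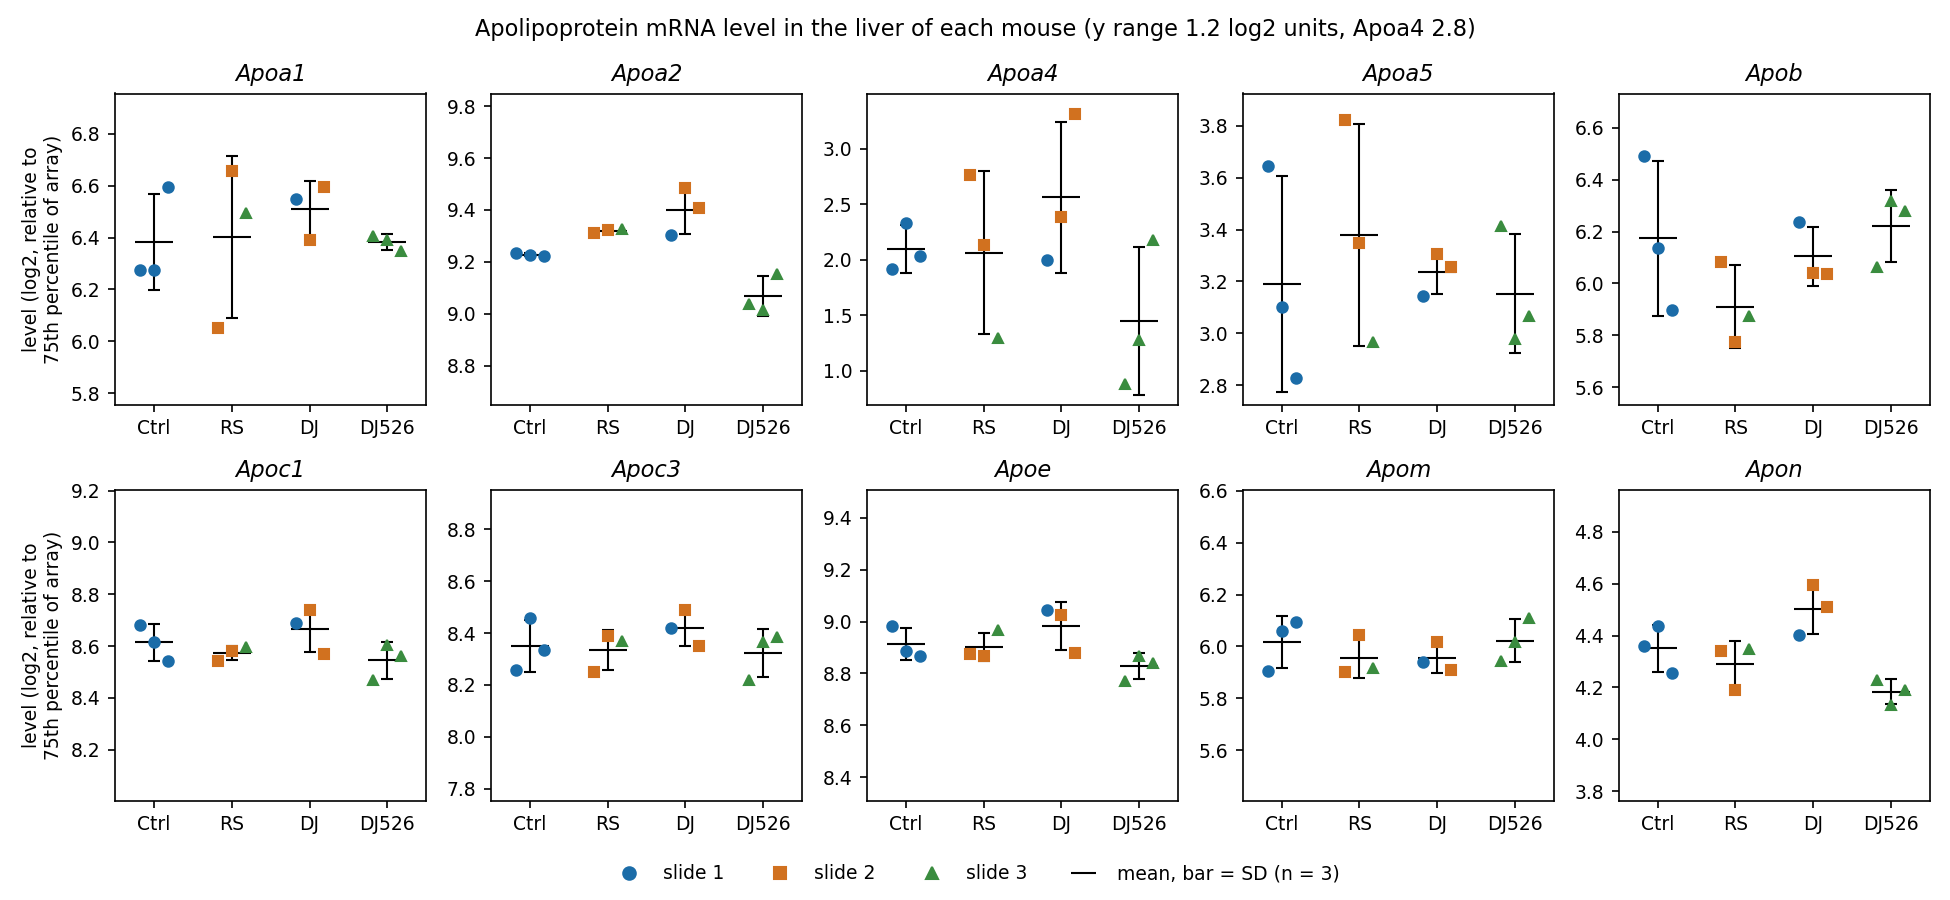
Level of each gene's brightest probe in the 12 livers (y axis, log2 relative to the 75th percentile of the array) by diet group (x axis), with slides as colours and shapes and the mean ± SD of 3 mice in black. The 3 DJ526 mice lie below the 9 others for Apoa2 and lowest on average for Apon, while Apoa4 spans 0.88 to 3.31.

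None of the 10 genes was called in any of 10 comparisons (limma, Benjamini-Hochberg over all 39429 probes, threshold 0.05), and the smallest adjusted p was 0.178, for Apoa2 in DJ526 against DJ. The comparisons were the 6 pairs of groups, rice against starch and sucrose, a resveratrol source against none, the difference between the resveratrol effects on the 2 diets, and any difference among the 4 groups. Over all probes the same rule called 0% in RS against Ctrl, DJ against Ctrl, DJ against RS, rice, resveratrol source and the difference of effects. It called 0.00507% in DJ526 against Ctrl, 0.0101% in DJ526 against DJ, 0.00761% in DJ526 against RS and 0.00507% for any difference. At an unadjusted p under 0.05, limma counted 3 of 10 genes in DJ526 against DJ (Apoa2, Apon and Apoa4), beside 9.84% of all probes, and 2 in DJ526 against Ctrl (Apoa2 and Apon), beside 10.8%. It counted 1 in DJ526 against RS (Apoa2, beside 5.52% of probes), 1 in DJ against Ctrl (Apoa2, beside 5.2%), 1 in DJ against RS (Apon, beside 3.51%) and 0 in RS against Ctrl (6%). The methods' unpaired t-test was run here on these levels, without the study's Z-ratio and intensity criteria or its q-value. Unadjusted, this t-test passed 2 genes in DJ526 against DJ (10.9% of all probes) and 2 in DJ526 against Ctrl (12.8%). It passed 1 each in DJ526 against RS (6.12%), DJ against Ctrl (4.63%), DJ against RS (2.81%) and RS against Ctrl (5.02%), and 0 in each after adjustment. For the remaining comparisons limma counted 0 for rice (4.56% of probes) and 2 each for the resveratrol source (10%), the difference of effects (6.09%) and any difference (7.7%). With 3 mice against 3, an exact permutation test of 1 gene cannot go below p = 0.1 (two-sided).

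On its brightest probe the HDL gene Apoa2 was lowest in all 3 DJ526 livers, while on its second probe DJ526 overlapped RS and Ctrl. In whole liver, fewer cells of a type and less RNA per cell cannot be told apart. Its brightest probe read 9.23, 9.23 and 9.22 in Ctrl, 9.31, 9.32 and 9.33 in RS, 9.30, 9.49 and 9.41 in DJ, and 9.04, 9.01 and 9.15 in DJ526. DJ526 overlapped none of the other groups, and RS and DJ overlapped each other but lay above Ctrl. The log2 fold change was -0.33 against DJ (standard error 0.0691, limma adjusted p = 0.178), -0.25 against RS (adjusted p = 0.452, limma) and -0.16 against Ctrl (adjusted p = 0.445, limma). The difference between the resveratrol effects on the 2 diets, rice minus starch and sucrose, was -0.42 (standard error 0.0977, 95% interval -0.64 to -0.21, limma adjusted p = 0.45). With the slide as a block these 4 values were -0.39, -0.26, -0.31 and -0.33. Within slide 3 alone the DJ526 mice lay -0.26 from RS 3.

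The Apoa2 difference was split by processing step. Of the -0.33 between DJ526 and DJ, -0.02 was in the background-subtracted signal, -0.16 in a multiple that the software applied to it and -0.15 in the scaling by the 75th percentile. Before the software's last processing step, the background-subtracted signal of this spot varied by 0.07 log2 units over all 12 arrays and its median pixel stood at 66.7% to 70.1% of the scanner's saturation level. The software then multiplied it by 1.04, 1.14 and 1.17 in the DJ526 arrays and by 1.14, 1.30 and 1.30 in the DJ arrays. Over all groups the multiple was 1.14 to 1.24 on slide 1, 1.28 to 1.31 on slide 2 and 1.04 to 1.23 on slide 3. Division by the 75th percentile, 952 to 1037 in DJ and 1056 to 1166 in DJ526, moved the groups apart in the same direction. That division applies to every probe of an array, and without it the median of all probes was 0.19 in DJ526 against DJ. The processed Apoa2 signal that entered this division already averaged 590033 in DJ526 and 669540 in DJ. Only the background-subtracted signal, before the multiple, was nearly flat. On the background-subtracted signal, an alternative chosen after seeing these data, DJ526 against DJ was -0.18 and DJ526 against RS -0.06. Quantile normalization, which gives probes of the same rank the same value, left DJ526 and DJ equal to 2 decimals, since this probe ranked 1 or 2 among all probes on every array. The second Apoa2 probe, at 59.8% to 63.7% of the saturation level, gave -0.20 against DJ (adjusted p = 0.458, limma), -0.06 against RS and -0.11 against Ctrl, and overlapped RS and Ctrl. The 6 hepatocyte markers, none of them called, did not move one way in DJ526 against DJ. Alb differed by -0.29, Cyp2e1 by -0.31, Serpina1a by -0.18 and Ttr by -0.12, while Tat differed by 0.13 and Cps1 by 0.67, with limma adjusted p from 0.23 for Alb to 0.912 for Tat.

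**Figure D2:**
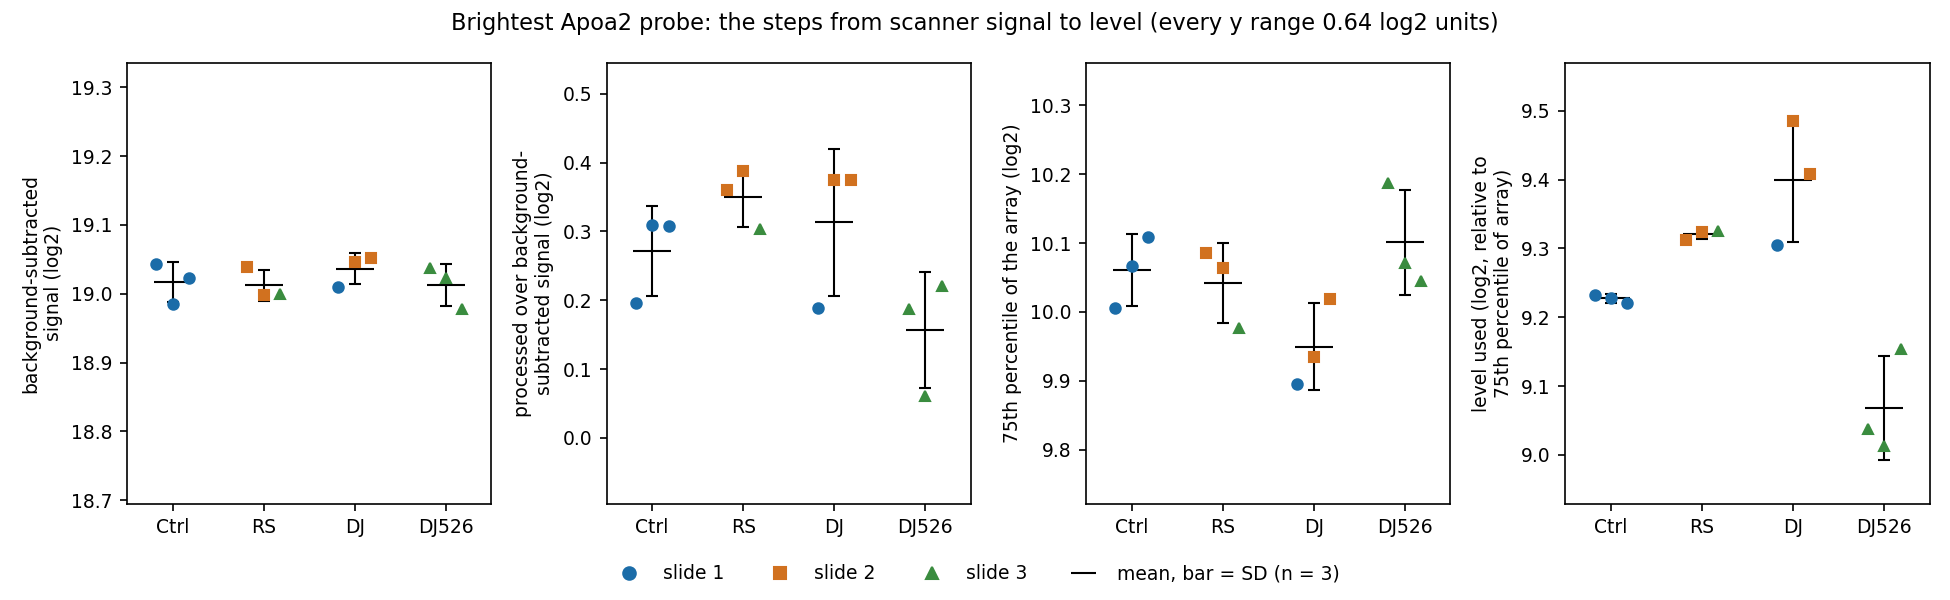
From left to right, the background-subtracted signal of the brightest Apoa2 probe, the multiple that the software applied to it, the 75th percentile of the array, and the resulting level, all on a log2 scale by group for the 12 arrays with mean ± SD of 3. The first panel spans 0.07 units and the last spans 0.47, with DJ526 lowest.

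Apon, the gene of apolipoprotein N, a minor HDL-associated protein, also had separated groups, and its probe was far from the scanner's limit (2.34% to 2.99% of the saturation level). It has 10 spots per array, whose signals had a coefficient of variation of 2.73% to 10.9% within an array. Its level was 4.36, 4.44 and 4.26 in Ctrl, 4.34, 4.19 and 4.35 in RS, 4.40, 4.59 and 4.51 in DJ, and 4.23, 4.13 and 4.19 in DJ526. The 3 DJ mice thus lay above all RS and DJ526 mice, and the DJ526 mice lay below all Ctrl and DJ mice but overlapped RS. DJ526 differed from DJ by -0.32 (standard error 0.0749, 95% interval -0.48 to -0.15, limma adjusted p = 0.225) and from Ctrl by -0.17 (adjusted p = 0.456, limma). DJ differed from RS by 0.21 (standard error 0.0749), and within slide 2, with 2 mice of each group, by 0.29. The resveratrol source, averaged over both diets, gave -0.19 (standard error 0.0529, limma adjusted p = 0.32), and the difference between the effects on the 2 diets gave -0.26 (limma adjusted p = 0.786). The software's multiple was 1.00 to 1.02 for this probe, and on the background-subtracted signal DJ526 against DJ was -0.34. With the slide as a block it was -0.45 (adjusted p = 0.518, limma). If the DJ and RS arrays were exchanged, as the identifiers in 1 of the study's tables would have it, DJ526 against DJ would be -0.11.

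Apoa4, whose hepatic expression is known to follow feeding and fat load, varied more between mice of 1 group than any other member, with a pooled SD of 0.61 log2 units against 0.06 to 0.32 for the brightest probes of the others. It read 1.92, 2.33 and 2.03 in Ctrl, 2.76, 2.13 and 1.30 in RS, 1.99, 2.38 and 3.31 in DJ, and 0.88, 1.28 and 2.18 in DJ526. DJ held the highest value and DJ526 the lowest, but all pairs of groups overlapped. DJ526 against DJ was -1.12 (standard error 0.428, 95% interval -2.06 to -0.17, limma adjusted p = 0.459). With the slide as a block this became -0.25 (standard error 0.657), and leaving out each mouse in turn gave -1.48 without DJ526 3 to -0.74 without DJ 3. With the DJ and RS arrays exchanged it was -0.62. DJ against Ctrl was 0.47, and within slide 1, where DJ 1 lay beside the 3 Ctrl arrays, it was -0.10. Within slide 3 the DJ526 mice lay 0.15 above RS 3. The summed intestinal markers, nearly all Fabp2, ran from 4.70 to 5.41 in Ctrl, 4.56 to 5.35 in RS, 4.71 to 5.48 in DJ and 4.54 to 4.61 in DJ526, and their part in the Apoa4 values was not tested. In DJ526 against DJ, Fabp2 differed by -0.49 and Cdx2 by -0.08, while Fabp6 differed by 0.49 and Vil1 by 0.09, and none was called. Its genomic neighbours Apoa1, Apoc3 and Apoa5 differed by -0.13, -0.10 and -0.08 between DJ526 and DJ.

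**Figure D3:**
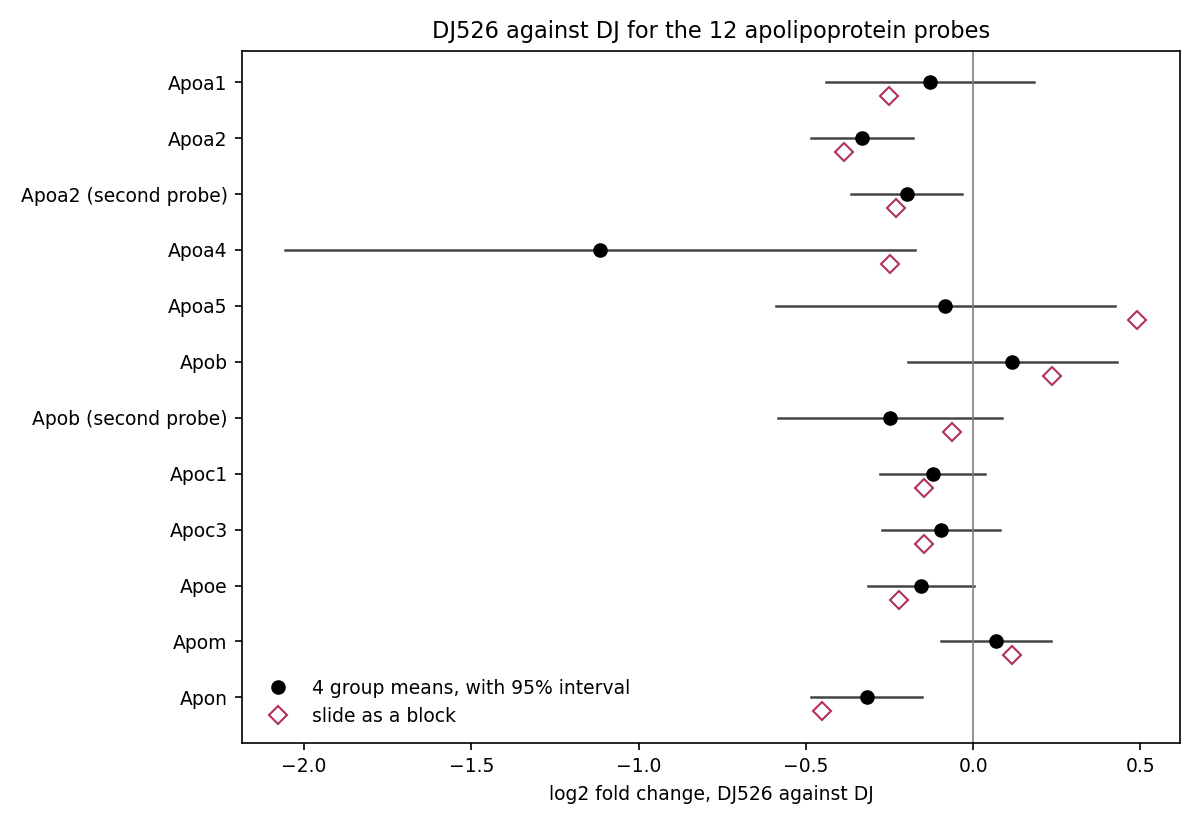
Log2 fold change of DJ526 against DJ (x axis) for the 12 probes (y axis), as black points with 95% intervals from limma, and with the slide as a block as open diamonds. Under the block Apoa2 moves from -0.33 to -0.39 and Apon from -0.32 to -0.45, while Apoa4 moves from -1.12 to -0.25 and Apoa5 from -0.08 to 0.49.

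The 2 probes of Apob, the structural protein of VLDL, gave opposite differences. The brightest probe read 6.49, 6.14 and 5.90 in Ctrl, 6.08, 5.77 and 5.88 in RS, 6.24, 6.04 and 6.04 in DJ, and 6.06, 6.32 and 6.28 in DJ526. On it RS lay -0.26 from Ctrl (standard error 0.142, limma adjusted p = 0.88) with overlapping groups. The second probe read 4.48, 4.46 and 4.60 in Ctrl, 5.25, 4.99 and 4.76 in RS, 4.50, 5.11 and 4.97 in DJ, and 4.60, 4.67 and 4.57 in DJ526. On this probe RS lay 0.49 above Ctrl (standard error 0.152, adjusted p = 0.64, limma) and DJ526 lay -0.39 from RS, both without overlap. By slide, the second probe read 4.46 to 4.60 on slide 1, 4.97 to 5.25 on slide 2 and 4.57 to 4.76 on slide 3. DJ 1 on slide 1 lay with the Ctrl mice, and RS 3 on slide 3 lay above the 3 DJ526 mice. Slide 2 held only RS and DJ mice, and slide and diet cannot be told apart here. With the slide as a block RS against Ctrl was 0.07 on this probe and -0.05 on the brightest. No slide held RS together with Ctrl, so these values rest on the single DJ 1 array and cannot show whether the RS difference vanishes. The gap between the probes within an array, which no scaling changes, was 1.29 to 2.01 on slide 1, 0.78 to 1.07 on slide 2 and 1.12 to 1.71 on slide 3.

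**Figure D4:**
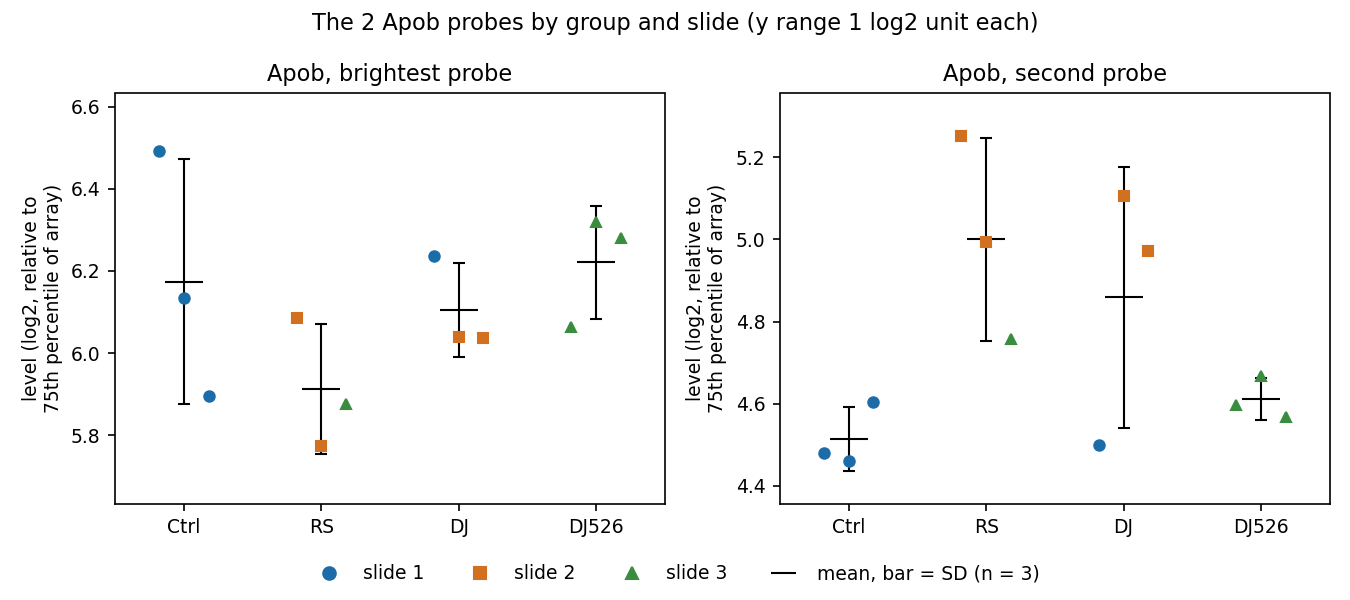
Level of the brightest (left) and second (right) Apob probe by group for 12 arrays (y axis, log2 relative to the 75th percentile of the array), with slides as colours and shapes and mean ± SD of 3 in black. On the right the slide 2 arrays of RS and DJ are highest, 4.97 to 5.25, and DJ 1 of slide 1 sits with Ctrl.

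For the other 6 genes no pair of groups differed by more than 0.23 log2 units. Apoe, the remnant ligand, was the only one whose DJ526 and DJ mice did not overlap, at 8.77, 8.87 and 8.84 against 9.05, 9.03 and 8.88, a difference of -0.16 (95% interval -0.31 to 0.00, limma adjusted p = 0.511). It turned to 0.04 with quantile normalization, and its probe stood at 64.0% to 67.9% of the saturation level. Apoc1, which hinders uptake of remnants by their receptors, differed by -0.12 (95% interval -0.28 to 0.04). Apoc3, the lipase inhibitor, differed by -0.10 (95% interval -0.27 to 0.08). Of the HDL genes, Apoa1 differed by -0.13 (95% interval -0.44 to 0.18) and Apom by 0.07 (95% interval -0.10 to 0.23). Apoa5, the activator of triglyceride breakdown, differed by -0.08 (95% interval -0.59 to 0.42). Its widest group was RS, at 3.82, 3.35 and 2.97. The intervals of Apoc1, Apoc3, Apoe and Apom thus all lay between -0.31 and 0.23. That of Apoa1 reached down to -0.44, and that of Apoa5 was wider on both sides.

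Scaling widened the spread over the arrays for some genes and narrowed it for others. The unscaled processed signal of Apoe varied by 0.10 log2 units over the 12 arrays, that of Apoc1 by 0.12 and that of the second Apoa2 probe by 0.11, while their levels after scaling varied by 0.27, 0.27 and 0.36. Apoa1, at 9.06% to 13.8% of the saturation level, varied by 0.58 before and 0.61 after scaling, Apoc3 by 0.26 and 0.27, Apon by 0.33 and 0.46, and Apom by 0.37 and 0.21.

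**Figure D5:**
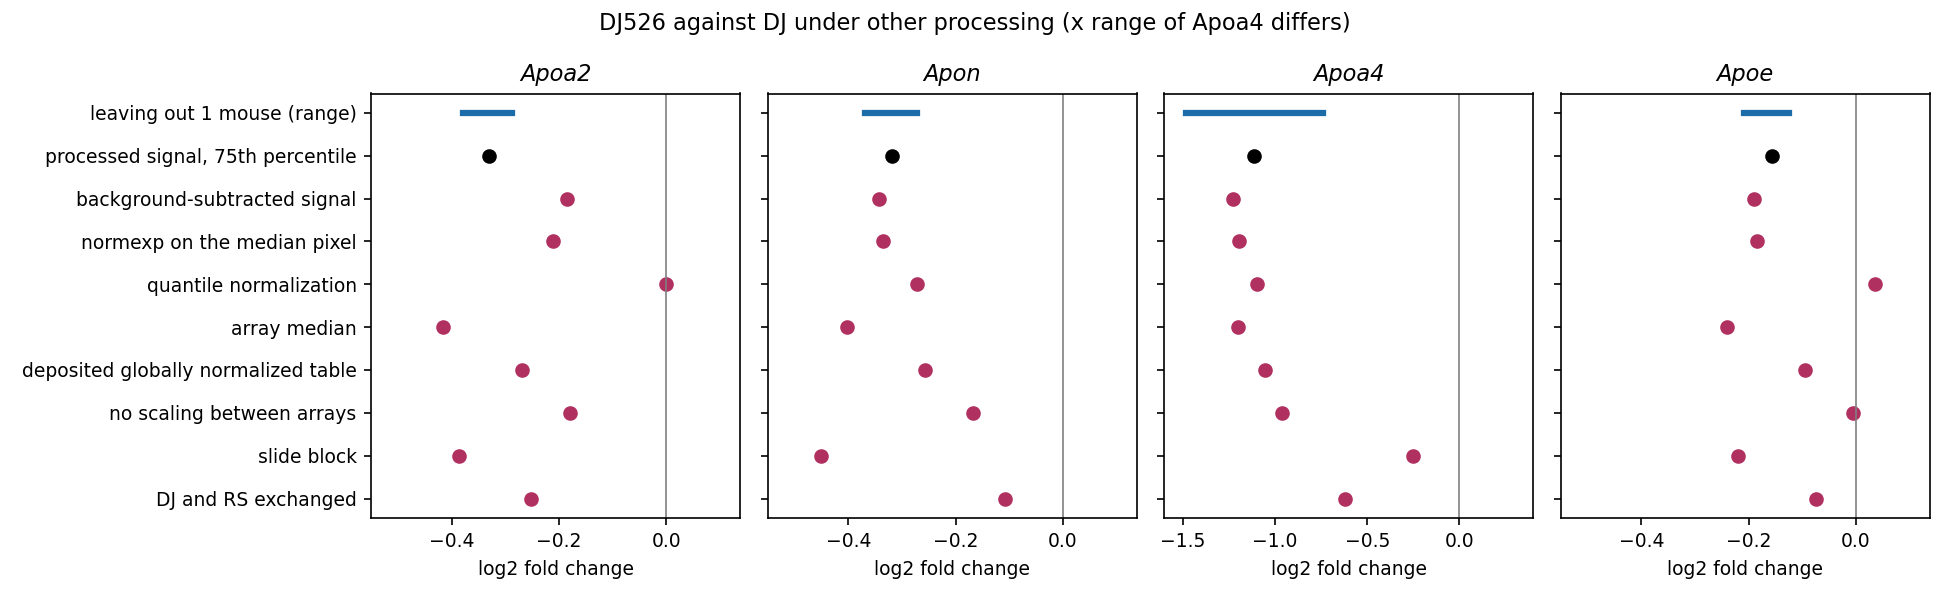
Log2 fold change of DJ526 against DJ (x axis) for Apoa2, Apon, Apoa4 and Apoe under the settings named on the y axis, with the reported value in black and the range over leaving out each mouse as a bar. Apon lies between -0.45 and -0.11 throughout, and Apoe reaches 0.04 with quantile normalization.

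Read as a family, 8 of 10 genes were lower in DJ526 than in DJ, with a median of -0.12 beside 0.04 over all probes. DJ also lay above the other diets. In DJ against Ctrl 8 of 10 were higher (median 0.07 beside -0.01), and in DJ against RS 9 of 10 (0.09 beside -0.05). In DJ526 against Ctrl 8 of 10 were lower, with a median of -0.05 beside 0.02 over all probes. For that comparison the median of the genes less that of all probes was -0.08. It turned to 0.04 with the slide as a block and was -0.0017 with quantile normalization. In DJ526 against DJ 9 of 10 were lower with the array median subtracted and 4 of 10 with no scaling, where the median of the genes was 0.03 and that of all probes 0.19. Those settings shift every probe of an array alike, and the median of the genes less that of all probes was -0.17 in each, as with the 75th percentile. It was -0.08 with the slide as a block and -0.01 with quantile normalization. The latter leaves little room for a difference in probes near the top rank. Such were Apoa2 (rank 1 or 2), Apoe (5 to 12), Apoc1 (20 to 26) and Apoc3 (33 to 58). Groups did not overlap for 3 of 10 genes in DJ526 against DJ (18.5% of all probes in either direction), 2 in DJ526 against Ctrl (20.6%), and 1 in each of DJ526 against RS (11.1%), RS against Ctrl (10.2%), DJ against Ctrl (9.37%) and DJ against RS (6.38%). The comparisons share arrays, so their counts are not independent.

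The rest of the lipoprotein pathway was read through 5 further lists with 88 measured genes of 89 (Apoc2 had no matched probe), namely other apolipoproteins, assembly and secretion, receptors and uptake, plasma lipid remodelling, and transcription factors of apolipoprotein genes. None of the 88 was called in any comparison, and 6 (6.82%) had an unadjusted p under 0.05 for any difference among the groups, beside 7.7% of all probes. The largest F was that of Sort1, which encodes sortilin, a sorting receptor of apoB in the Golgi. It read -1.35, -1.77 and -0.79 in Ctrl, -0.66, -0.39 and 0.09 in RS, -0.54, -0.56 and -0.69 in DJ, and -0.58, -0.37 and -0.24 in DJ526. All 9 mice of the other diets lay above the 3 Ctrl mice, by 0.98 in RS (standard error 0.235), 0.71 in DJ and 0.91 in DJ526 (limma adjusted p = 0.484, 0.842 and 0.217). Over all probes, groups did not overlap for 10.2%, 9.37% and 20.6% in these comparisons. Sort1 was named for its large F, and the Ctrl arrays shared their slide only with DJ 1. Mia2, which helps load large cargo such as VLDL for export, was -0.30 in DJ against Ctrl (limma adjusted p = 0.784). The list of other apolipoproteins (16 measured genes) also holds the apoB receptor gene Apobr, which is not an apolipoprotein gene. The largest F in this list were those of the constitutive serum amyloid gene Saa4 (0.60 in DJ against Ctrl, limma adjusted p = 0.925) and Apobr (-0.54 in DJ526 against Ctrl, limma adjusted p = 0.422).

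Among the 15 genes of receptors and uptake, Lsr, a lipolysis-stimulated receptor, differed by -0.01 in DJ526 against DJ. In plasma remodelling (16 genes), Lmf1, needed to mature lipoprotein lipase, differed by -0.20 in DJ526 against DJ (limma adjusted p = 0.39), and the HDL enzyme Pon1 by -0.23 (adjusted p = 0.492, limma). In the 21 transcription factors, the nuclear receptor Rora read 0.24, 0.07 and 0.60 in RS and 0.65, 0.92 and 0.88 in DJ526. The difference was 0.51 (limma adjusted p = 0.491) without overlap, beside 11.1% of all probes without overlap. Nr5a2 differed by 0.29 between the same groups (adjusted p = 0.554, limma). The medians of the 5 lists in DJ526 against DJ were -0.11 for other apolipoproteins, 0.04 for assembly, 0.01 for receptors, 0.05 for remodelling and 0.04 for transcription factors, beside 0.04 over all probes.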

How the data were processed

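Liver RNA of 12 mice was measured on Agilent one-colour arrays (1 array per mouse). The authors deposited, per array, the intensity of every spot from Feature Extraction 11.5.1.1, as median pixel, background-subtracted and processed signal on a linear scale, and a table of globally normalized intensity values, equal to the processed signal times 1 factor per array (0.959 to 1.08) for 99.9% of probes. Groups came from the sample titles. A probe's level is log2 of the mean processed signal of its unflagged spots, less log2 of the array's 75th percentile. Of 39429 probes, 27508 were named by RefSeq or Ensembl accession (GRCm38.p6), and 68 lacked a value on some array.

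limma 3.58.1 (R 4.3.3) estimated 1 mean for each group with a variance trend and 8 residual degrees of freedom, and was tested on simulated data. P-values were adjusted by Benjamini-Hochberg with a threshold of 0.05. Each gene was read by its brightest probe. All members were named, and of each other list every called gene and the 2 with the largest F among genes well above background on all arrays, apart from 1 gene that is not reported here. The members and lists were chosen with earlier results of these data known. Alternatives were other backgrounds, scalings and filters, the mean of probes, no variance trend, blocks, fits of single comparisons, the methods' t-test, DJ and RS exchanged, and leaving out each mouse. 2 were added after seeing the data, no scaling and the background-subtracted signal. normexp ran without spots with a flagged background, so Apoc3 and the second Apoa2 probe have no value there. Python 3.11.15, numpy 2.4.6, scipy 1.17.1, pandas 2.3.3 and matplotlib 3.10.9 made the tables and figures.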

Additional observations from a re-analysis of the deposited data

How the results depend on the processing

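The count of called apolipoprotein genes was 0 in every comparison under all 26 settings that could be run, and the smallest adjusted p among them was 0.0965. Of 24 fold changes followed, these changed sign. With the slide as a block, Apoa4 in DJ against Ctrl became -0.10, the second Apob probe in DJ against Ctrl -0.0145 and Apoa5 in DJ526 against DJ 0.49. The values for DJ against Ctrl rest on the single DJ 1 array, and that of Apoa5 on the single RS 3 array. With DJ and RS exchanged, Apon became -0.21 in DJ against RS and 0.0216 for the resveratrol source, and Apoa4 -0.0318 in DJ against Ctrl. With the 2 Apob probes averaged, RS against Ctrl became 0.11 and DJ526 against RS -0.0399. In DJ526 against DJ, quantile normalization turned Apoe to 0.0355, the array median turned Apom to -0.0163, and no scaling turned Apoa1 to 0.0221, Apoa5 to 0.0684, Apoc1 to 0.0308 and Apoc3 to 0.0556, where the median of all probes was 0.19 and all 4 lay below it. Leaving out each mouse gave -0.21 to 0.00482 for Apoa5 in DJ526 against DJ, positive only without DJ526 2, and turned no other of the 24. The causes were not tested. The numbers 1 to 3 were not taken to pair the mice. Deviations of same-numbered mice correlated between -0.27 and 0.26 over 18 pairs of arrays, a range that was not tested and cannot exclude pairing. With the replicate number as a block the counts stayed at 0 and Apoa2 in DJ526 against DJ was -0.33 (limma adjusted p = 0.298). The number of arrays, 3 a group, limits the precision.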

Other observations

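The genes whose levels over the 12 arrays were most like those of the brightest Apoa2 probe were Marchf2 (Pearson r = 0.94), Ren1 (0.91), Brdt (0.91), Gemin7 (0.90) and Med11 (0.90), among 20279 named probes well above background on every array. This is a description of 12 arrays that share 3 slides, and it was given no test. All 5 had their lowest mean in DJ526, which largely follows from their being picked for likeness to Apoa2 on these arrays. Ren1 was at -4.66 there against -3.58 in Ctrl, -3.31 in RS and -3.34 in DJ on the log2 scale.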
